A study of Drosophila melanogaster with 3 samples.

Results

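The Toll family receptors of Drosophila melanogaster were followed in the wing imaginal disc, the larval sheet of cells from which the wing and the back of the adult thorax grow. The members were the 8 genes Tl, 18w, Toll-4, Toll-6, Toll-7, Tollo, Toll-9 and Tehao out of 17611 genes in the deposited table. Of these, 7 were found by the gene name in the table, and 18w was found by its gene identifier, FBgn0287775, because its row carries no name. The rule takes the members by family name and uses no measured value, although earlier results of these data were known when the family was chosen. Discs came from wandering larvae of the genotype w;apGAL4/+, described in the labels as wild type, with 1 copy of a GAL4 driver of the apterous gene, which is active in the dorsal compartment. No transgene under GAL4 control is named. Each sample pooled 100 to 120 discs from larvae kept at 25 °C for about 5 days, and the 3 libraries form 1 group, so no conditions were compared. Whether the samples are separate cultures is not stated, so the spread and every p-value may reflect technical variation only. The levels are FPKM, fragments per kilobase of exon, with 1 scaling factor per library as deposited. These factors were near the recovered read totals of the libraries but not equal to them.

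Toll receptors span the membrane once, with leucine-rich repeats outside and a TIR signalling domain inside. Tl, the founding member, is bound by the processed cytokine Spatzle and acts through the adaptor Myd88, tube and the kinase pelle to free the NF-kappaB factors dorsal and Dif from the inhibitor cactus. This pathway sets the dorsoventral axis of the embryo and drives the response to fungi and many bacteria. 18w, Toll-6 and Tollo are known from embryos, where their striped expression orients cell rearrangement, and Toll signalling takes part in competition between cells of the wing disc.

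The family fell into 2 classes in the wing disc, with 4 genes at 16.2 FPKM or more in every library and 4 genes at 0.151 FPKM or less in every library. 18w, Toll-7, Tollo and Tl were detected, meaning that no library lay below 1 FPKM, as were 42.9% of all 17611 genes. Among the 13950 protein-coding genes 51.9% were detected, and 4 of 8 members is a share near that background. The same 4 members, and no others, passed a level of 0.5 FPKM (45.6% of all genes) or 2 FPKM (40.5%) in every library, 1 FPKM in any library (47.1%), and 10 reads in every library (47.9%). Toll-9, Tehao, Toll-4 and Toll-6 were not detected. No member lay between 0.151 and 16.2 FPKM in any library. The 8 members summed to 161 ± 3.75 FPKM (SD, n = 3), of which the 4 detected genes gave 99.9% in each library. The 4 others summed to 0.164 ± 0.0171 FPKM. The tissue was sequenced in bulk, so a gene that is high in few cells cannot be told apart from one that is low in many.

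18w, which acts in epithelial morphogenesis and in the migration of follicle cells, had the highest level. It stood at 55.5, 52.6 and 53.8 FPKM in libraries 1, 2 and 3, a mean of 54.0 ± 1.48 FPKM (SD, n = 3). The 3 values lay close together, and 91.8% of all genes had a lower mean. Toll-7, known as a receptor of neurotrophin-like Spatzle proteins in the nervous system and for a part in antiviral defence, stood at 49.0, 47.4 and 47.9 FPKM. Its mean was 48.1 ± 0.82 FPKM, and its highest library lay below the lowest library of 18w. Tollo, also called Toll-8, acts in embryonic cell rearrangement and restrains immune responses in the airway. It stood at 44.0, 42.3 and 40.5 FPKM, a mean of 42.2 ± 1.78 FPKM (SD, n = 3), and its highest library lay below the lowest library of Toll-7. Tl stood at 16.7, 16.2 and 17.0 FPKM, a mean of 16.6 ± 0.395 FPKM, far below the other detected members in every library.

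The 4 detected genes took nearly constant shares of the family. 18w gave 33.5 ± 0.312% of the summed FPKM of the members, Toll-7 29.8 ± 0.223%, Tollo 26.2 ± 0.71% and Tl 10.3 ± 0.307% (SD, n = 3 each). A limma test against 1 FPKM, fitted over the 13909 genes with any read, placed the same 4 members above that level. It called 53.4% of the genes tested. On the log2(FPKM + 0.1) scale 18w lay above 1 FPKM by 5.62 with a standard error of 0.04 (limma adjusted p = 3.87e-06). Tl, the lowest of the 4, lay above it by 3.93 with a standard error of 0.04 (limma adjusted p = 4.33e-06). Each was above in 3 of 3 libraries.

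**Figure D1:**
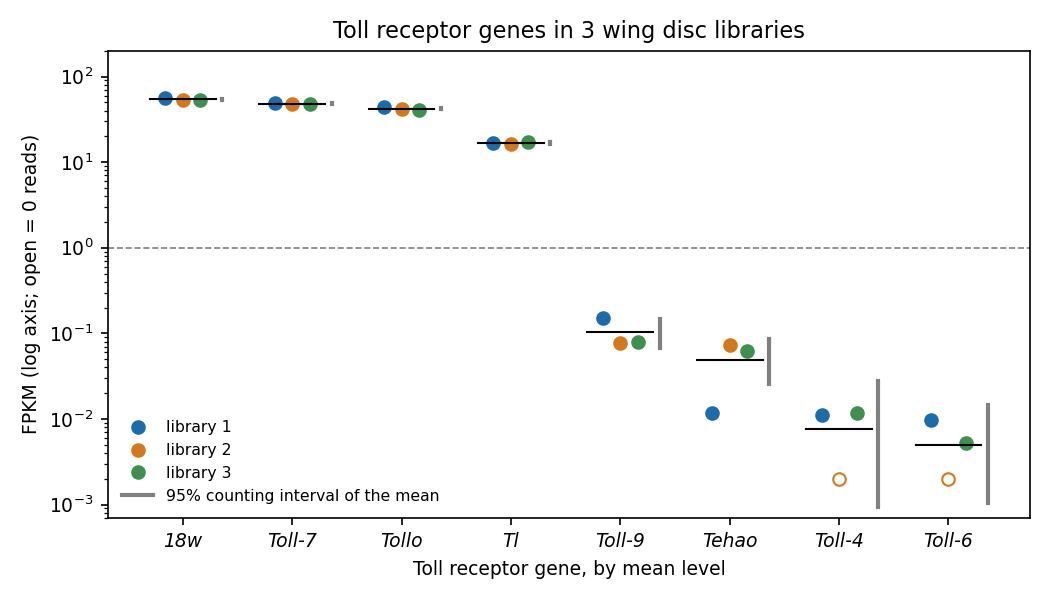
FPKM of each Toll receptor gene (log axis) in libraries 1, 2 and 3, with the mean as a black line and the 95% counting interval of the mean as a grey bar; open circles are libraries with 0 reads, drawn at 0.002. The 4 detected genes lie at 16.2 FPKM or more and the other 4 at 0.151 FPKM or less, with the dashed line at 1 FPKM between them.

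The 4 undetected members rested on 2 to 28 reads each over all 3 libraries. Toll-9, the member whose sequence is most like the Toll-like receptors of mammals, had 14, 7 and 7 reads, or 0.151, 0.0773 and 0.0802 FPKM. Its mean of 0.103 ± 0.0415 FPKM had a 95% counting interval of 0.0682 to 0.148 FPKM, which covers counting error only, as do the other counting intervals. Tehao, also called Toll-5, had 1, 6 and 5 reads, or 0.0118, 0.0726 and 0.0628 FPKM. Its mean of 0.0491 FPKM had an interval of 0.0254 to 0.0858 FPKM. The antisense gene asRNA:CR45683, with 3, 2 and 4 reads, covers 63.1% of the exon length of Tehao, and without knowledge of strand reads of the pair cannot be told apart.

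Toll-4 had 1, 0 and 1 reads and Toll-6 had 2, 0 and 1 reads. The mean of Toll-4 was 0.00765 FPKM with an interval of 0.000926 to 0.0276 FPKM, and that of Toll-6 was 0.00503 FPKM with an interval of 0.00104 to 0.0147 FPKM. Toll-6, a neurotrophin receptor of the nervous system, has the longest exon length of the family, 7624 bases. Its mean was the lowest per exon length, but its order with Toll-4 was within counting error and reversed in undivided reads and per coding length. MstProx, the gene of Toll-3, which was not among the members, had 1, 2 and 0 reads. The upper bounds of all 4 intervals lay below 1 FPKM.

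In order of level, each of the 4 detected genes differed from its lower neighbour beyond the spread of the libraries, and the 3 comparisons among the undetected genes did not. The criterion was a log2 ratio of the same sign in 3 of 3 libraries and above 2 SD. 18w exceeded Toll-7 by a log2 ratio of 0.17 ± 0.02 (SD, n = 3), Toll-7 exceeded Tollo by 0.19 ± 0.05, and Tollo exceeded Tl by 1.34 ± 0.08. Tl exceeded Toll-9 by 6.38 ± 0.28 on this scale, which understates the difference because of the pseudocount of 0.1. From reads per kilobase the ratio of Tl to Toll-9 was 161, with a counting interval of 111 to 242. The log2 ratio was 0.45 ± 0.62 for Toll-9 to Tehao, 0.45 ± 0.40 for Tehao to Toll-4 and 0.03 ± 0.05 for Toll-4 to Toll-6. The pseudocount is near or above the levels of these genes and compresses their ratios, which with a pseudocount of 0.01 were 1.09 for Toll-9 to Tehao and 1.61 for Tehao to Toll-4. In reads per kilobase summed over the libraries the ratio was 2.13 for Toll-9 to Tehao (counting interval 1.05 to 4.59), 6.37 for Tehao to Toll-4 (1.42 to 58.6) and 1.50 for Toll-4 to Toll-6 (0.126 to 13.1). The first 2 of these intervals lie above 1, so counting error alone does not cover those differences, but neither met the criterion on the spread between libraries. Among members that are not neighbours in the order, Toll-9 exceeded Toll-4 by a log2 ratio of 0.90 ± 0.25 and Toll-6 by 0.93 ± 0.23 (SD, n = 3 each), both beyond the spread by the same criterion. Their ratios in reads per kilobase were 13.6 (3.42 to 117) and 20.4 (6.30 to 105). The exact two-sided sign-flip permutation p was 0.25 for 6 of the 7 neighbouring pairs (0.292 after adjustment over the 7), the smallest that 3 libraries allow, and 0.5 for Toll-4 to Toll-6.

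The order of 18w, Toll-7 and Tollo depended on the length by which reads were divided. These 3 genes had 22720, 23868 and 23672 recovered reads in all, and their exon lengths are 5422, 6396 and 7214 bases. Their coding lengths are closer together, at 4155, 4338 and 4038 bases, so that 1267, 2058 and 3176 bases of exon are noncoding. The division by coding length kept the reads of all exon bases, noncoding ones included, which raises genes with much noncoding exon. Divided in this way, Tollo was the highest in 3 of 3 libraries, at 75.5 ± 3.18 (SD, n = 3), against 70.9 ± 1.21 for Toll-7 and 70.4 ± 1.94 for 18w. The log2 ratio of 18w to Toll-7 was then -0.0089, and -0.071 in reads not divided by length. The log2 ratio of Toll-7 to Tollo was -0.091 per coding length and 0.01 in undivided reads. Tl remained the lowest of the detected genes under each of the 3 scalings, at 25.8 ± 0.613 per coding length and 6702 reads.

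**Figure D2:**
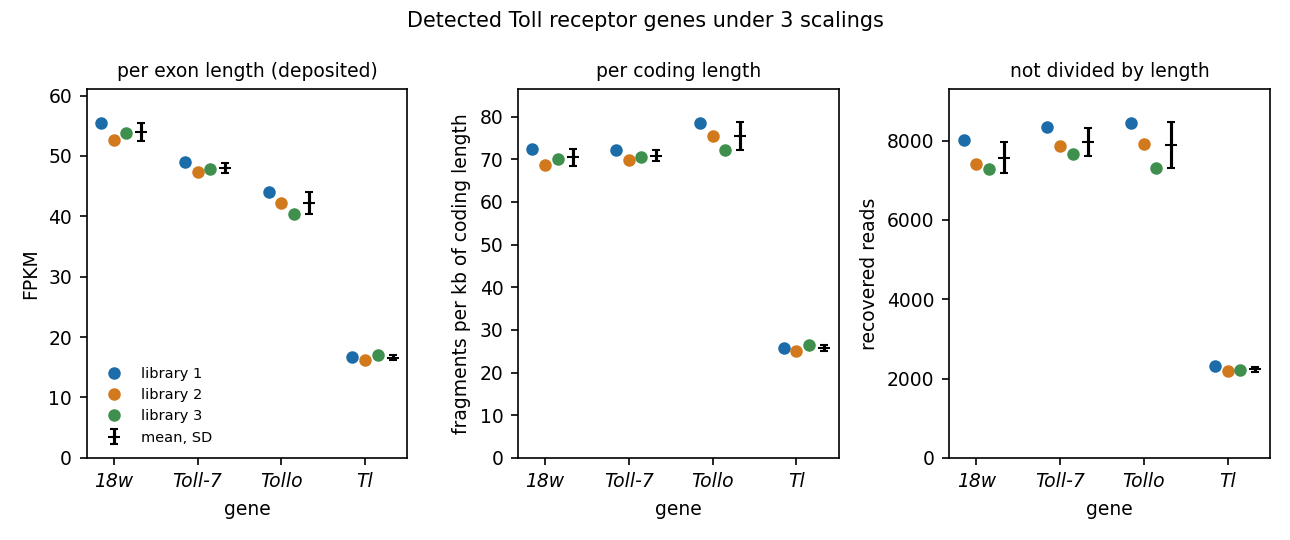
The 4 detected Toll receptor genes in libraries 1, 2 and 3 (points, with mean and SD), as deposited FPKM, as fragments per kilobase of coding length and as recovered reads. The values per coding length include the reads of noncoding exon bases. 18w is highest per exon length and Tollo per coding length, and Tl is lowest in each panel.

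The detected members varied little between libraries in the deposited scaling. The coefficient of variation was 2.75% for 18w, 1.71% for Toll-7, 4.21% for Tollo and 2.38% for Tl. Counting of reads alone gives 1.15%, 1.12%, 1.13% and 2.12%. In this scaling the spread of Tl was thus close to counting error and that of Tollo was the farthest above it. With the libraries rescaled to the same summed FPKM, the SD was larger for each gene. It was then 2.22 FPKM for 18w, 1.49 for Toll-7, 2.30 for Tollo and 0.491 for Tl, against 1.48, 0.82, 1.78 and 0.395 FPKM as deposited. The median SD of log2(FPKM + 0.1) over the 4 genes was 0.04, against 0.05 over the 5661 genes whose mean reached 10 FPKM. Of those genes, 84.0% had a larger SD than Toll-7 and 40.5% a larger SD than Tollo.

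Summed markers of gut, salivary glue and fat body differed much more between the libraries than the receptors. The neuronal sum, which came mostly from elav, did not. For single neuronal genes the SD of log2(FPKM + 0.1) was 0.05 for elav, 0.35 for Syt1, 0.19 for futsch and 0.13 for nSyb. The summed FPKM of 7 gut genes was 6.72, 869 and 385 in libraries 1, 2 and 3, that of 6 salivary glue genes 126, 811 and 288, and that of 7 fat body genes 541, 899 and 2464. The leading genes were Jon65Aiv and Jon65Aiii for gut, Sgs7 and Sgs5 for glue, and Lsp1gamma and Lsp2 for fat body. An antisense gene covers 84.6% of the exon length of Lsp2. The gut genes did not behave alike: betaTry was highest in library 3, and Amy-p and Amy-d had 13 and 2 reads in all. On the log2 scale the largest departure of a detected Toll receptor from its own mean was -0.06, that of Tollo in library 3. In library 1 the gut sum departed by -4.27 and the larval muscle sum by -0.35. The hemocyte sum departed by 0.18 in library 2. The 7 hemocyte genes, led by crq and He, summed to 36.4, 43.7 and 35.9 FPKM, and the 7 markers of disc epithelium, led by ap and vg, to 347, 336 and 332 FPKM. All 7 epithelial markers, all 6 markers of adult muscle precursors (led by Ama and Him) and all 5 of trachea (led by verm and serp) were detected. So were 7 of 7 fat body, 6 of 7 hemocyte, 5 of 6 glue and 4 of 5 larval muscle genes. The counts were 2 of 7 for gut, 1 of 4 for neurons and 1 of 2 for glia, against 51.9% of protein-coding genes. Among neuronal genes elav stood at 2.65 ± 0.086 FPKM and Syt1 at 0.512 ± 0.155 FPKM, with a summed level of 3.74, 3.63 and 3.90 FPKM over 4 genes. Among glial genes moody stood at 3.27 ± 0.177 FPKM and repo at 0.0559 FPKM. The larval muscle genes, led by Act57B and Mlc2, summed to 42.4, 68.8 and 54.6 FPKM. The part of these tissues in the levels of the Toll receptors was not tested.

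**Figure D3:**
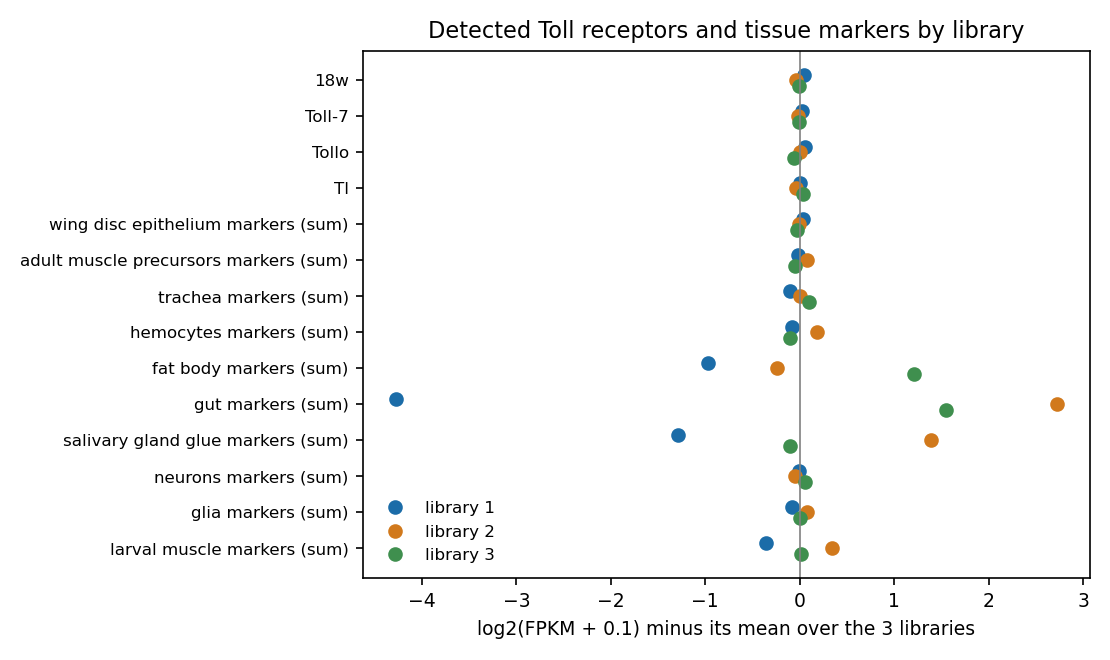
Departure of log2(FPKM + 0.1) from its mean over the 3 libraries, for the 4 detected Toll receptor genes and for summed tissue markers. The receptors stay between -0.06 and 0.06, while gut, glue and fat body markers spread over log2 units.

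The genes differ in structure as well as in level. With the exons of all transcripts merged, 18w, Toll-7, Tollo and Toll-6 each form a single exon, against 16.4% of protein-coding genes with an annotated length. Toll-6 has 3 annotated transcripts, so a single merged exon does not show that each of them lacks an intron. The 4 others have several merged exons: 5 in Tl, 7 in Toll-9, 4 in Toll-4 and 2 in Tehao. Among all protein-coding genes, 29.2% of the 2288 with a single merged exon and 56.3% of the 11635 others were detected. In the family 3 of the 4 genes with a single merged exon were detected, and Toll-6 was the exception. Exons of no other gene overlap those of any member except Tehao.

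In the annotation (dm6 coordinates) Tollo lies on chromosome 3L at 15235619 to 15242832 and Toll-6 at 15336692 to 15344315, both on the plus strand. They are 93.9 kb apart, and Tollo was among the 4 detected members and Toll-6 among the 4 undetected ones. The log2(FPKM + 0.1) ratio of Tollo to Toll-6 was 8.66 ± 0.07 (SD, n = 3), and the reads were 8457, 7916 and 7299 for Tollo against 2, 0 and 1 for Toll-6. The ratio in reads per kilobase was 8339, with a counting interval of 2853 to 40440. Of 6 genes between them, 3 of which are protein-coding, 1 was detected. It was the protein-coding gene CG7255, at 1.50, 1.76 and 5.27 FPKM.

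Toll-7 and 18w also lie near each other, on chromosome 2R at 19826578 to 19832973 and 20111511 to 20116932, both on the plus strand and 279 kb apart. Both were high, and none of the 33 genes between them was detected, 13 of which are protein-coding. The highest of these was CG8654 at 0.992, 1.33 and 2.49 FPKM, and the median was 0 FPKM. The nearest protein-coding genes were listed near 0 on both sides: Obp56h and CG44569 beside Toll-7 had means of 0.0217 and 0.0114 FPKM, and CG46443 and CG11041 beside 18w had no read. For both intervals the share of detected genes was 42.9% over the whole table, as given above, and 51.9% over protein-coding genes. The second share is the background for the 13, and the other genes between Toll-7 and 18w are noncoding RNA genes.

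**Figure D4:**
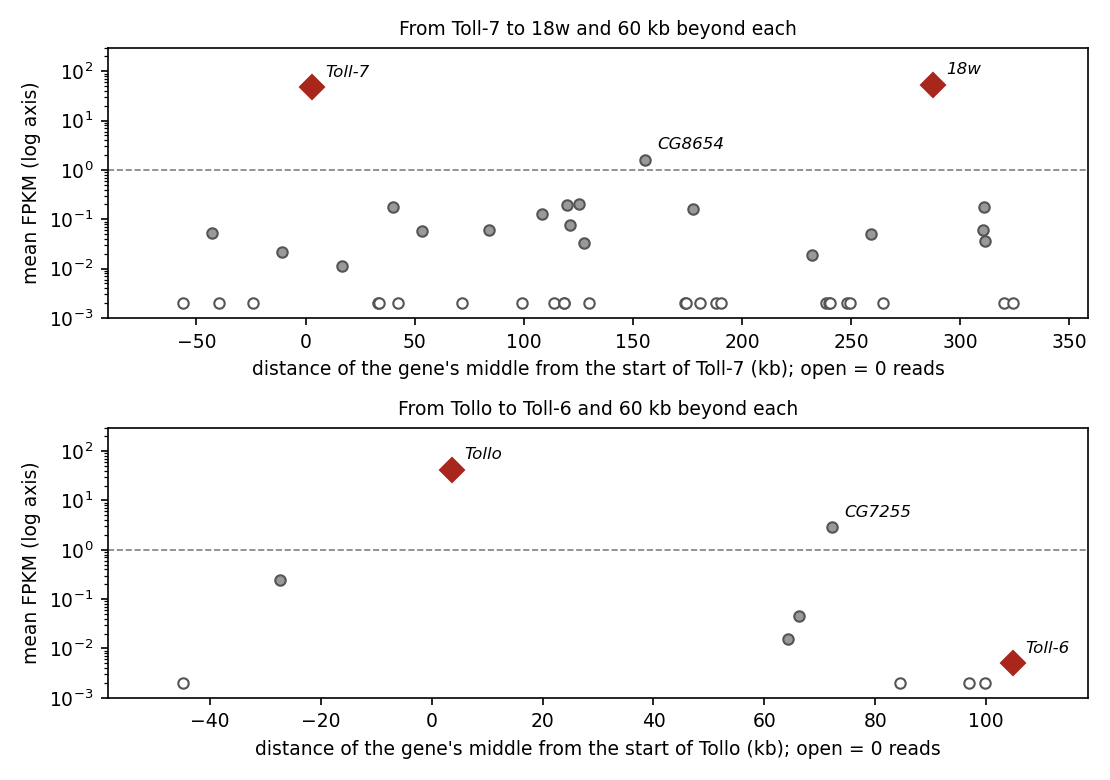
Mean FPKM (log axis) of every listed gene from Toll-7 to 18w (top) and from Tollo to Toll-6 (bottom) and up to 60 kb beyond, by distance from the start of the first gene; diamonds are Toll receptors and open circles genes with 0 reads, drawn at 0.002. Toll-7, 18w and Tollo stand at 42.2 to 54.0 FPKM among genes of which CG7255 alone reached 1 FPKM in every library, while Toll-6 is near 0.

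Toll-9 showed the reverse arrangement, a gene near 0 among detected neighbours. It lies on chromosome 3L at 20361843 to 20366724 on the minus strand, and 12 of 14 protein-coding genes within 25 kb of it were detected, against 51.9% of the 13950 protein-coding genes in the table. DNApol-alpha60, a subunit gene of DNA polymerase alpha that lies 257 bases away on the left in the annotation, stood at 15.1 ± 0.379 FPKM. The wing hair polarity gene in, which lies 473 bases away on the right, stood at 23.3 ± 3.04 FPKM (SD, n = 3 each). Toll-9 at 0.103 FPKM was below both in 3 of 3 libraries. Within the same distance 2 of 11 genes near Tehao (2L 13435622 to 13439930), 0 of 4 near Toll-4 (2L 9084107 to 9089440) and 4 of 5 near Tl (3R 26799041 to 26842403) were detected. These neighbours were described after their values had been seen.

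Of 6 genes for ligands of the Spatzle family 5 were detected, against 51.9% of protein-coding genes. Their median was 2.53 FPKM, close to the 2.55 FPKM of all protein-coding genes. The highest, spz6, lay above Tl and below 18w, Toll-7 and Tollo in 3 of 3 libraries, and the 5 others lay below all 4 detected receptors. spz6 stood at 18.8, 19.3 and 18.5 FPKM and spz3 at 9.74, 9.42 and 11.1 FPKM. spz, the gene of the known ligand of Tl, stood at 2.03, 1.76 and 2.30 FPKM. Within libraries Tl exceeded spz by a log2 ratio of 2.98 ± 0.15 (SD, n = 3). NT1 and spz5, whose products are neurotrophin-like ligands of Toll-6 and Toll-7, stood at 2.77 ± 0.259 and 2.30 ± 0.589 FPKM. spz4 was not detected, at 0.325 ± 0.111 FPKM.

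Upstream of the ligands, 9 of 15 genes of proteases that lead to Spatzle cleavage and of their serpins were detected, a share near the 51.9% of all protein-coding genes. Serpin genes led the list, with Spn88Ea at 121 ± 2.67 FPKM and Spn27A, whose product inhibits the protease easter, at 74.1 ± 4.13 FPKM, and a further serpin gene, Spn28Dc, stood at 21.8 ± 0.766 FPKM. modSP, the modular protease that acts early in the immune cascade, stood at 51.8 ± 2.31 FPKM and Hayan, a protease of melanization, at 13.0 ± 1.02 FPKM. Of the Hayan exon length 36.2% is shared with an antisense gene. SPE, the Spatzle-processing enzyme, stood at 3.79, 2.71 and 3.38 FPKM. ea, which processes Spatzle in the embryo, was at 0.639, 1.51 and 1.57 FPKM and so missed detection in library 1 alone. nec, a serpin gene of the immune branch, stood at 1.17, 1.01 and 1.89 FPKM and was highest in library 3. Among 5 genes of microbe sensors 3 were detected: GNBP3, which binds fungal glucan, at 177 ± 7.16 FPKM, GNBP1 at 50.8 ± 1.37 FPKM and PGRP-SA at 5.21 ± 1.08 FPKM. PGRP-SD and PGRP-SC2 stood at 0.972 ± 0.436 and 0.43 ± 0.48 FPKM.

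All 5 genes of the cytoplasmic adaptors and the kinase were detected, and the 51.9% of protein-coding genes is the background for this and the following counts. Myd88 stood at 16.6, 17.2 and 17.0 FPKM, close to Tl, and the log2 ratio of Tl to Myd88 was -0.03 ± 0.05 (SD, n = 3), above 0 in 1 of 3 libraries. tub, the adaptor between Myd88 and the kinase, stood at 38.9 ± 0.589 FPKM, pll, the kinase gene, at 19.2 ± 0.891 FPKM, and wek, an adaptor that binds Tl, at 13.4 ± 0.268 FPKM. Ect4, listed in the table as Sarm, encodes a further TIR protein and stood at 9.37 ± 0.323 FPKM.

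The inhibitor gene cact stood above the NF-kappaB genes it restrains. cact was at 38.9, 38.1 and 40.4 FPKM, dl at 7.98, 8.05 and 9.60 FPKM and Dif at 0.798, 0.818 and 1.21 FPKM. dl exceeded its chromosomal neighbour Dif by a log2 ratio of 3.07 ± 0.16 and lay below cact by 2.19 ± 0.11 (SD, n = 3 each). Dif reached 1 FPKM in library 3 alone. Rel, the NF-kappaB gene of the Imd pathway, stood at 21.8 ± 0.308 FPKM. Over the ligands, the adaptors with the kinase, and the NF-kappaB genes with the inhibitor, 13 of 15 genes were detected.

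Of 10 genes for modulators of cytoplasmic signalling all were detected, with a median of 24.7 FPKM. lwr, the SUMO-conjugating enzyme, stood at 174 ± 3.95 FPKM, the SUMO protease gene Ulp1 at 44.7 ± 1.57 FPKM, the Pellino ubiquitin ligase gene Pli at 42.6 ± 3.68 FPKM, and the endosomal genes mop and Hrs at 30.6 ± 1.27 and 20.8 ± 1.22 FPKM. The arrestin gene krz was at 27.4 ± 1.67 FPKM.

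All 9 genes for known or candidate partners of Toll receptors at epithelial contacts were detected, with a median of 28.9 FPKM. Cirl, the latrophilin that interacts with Tollo at cell boundaries, stood at 167, 163 and 153 FPKM. Both Cirl and Tollo were highest in library 1 and lowest in library 3, and the log2 ratio of Tollo to Cirl was -1.92, -1.94 and -1.91, or -1.93 ± 0.02 (SD, n = 3). The same ratio was -1.57 ± 0.06 for 18w and -1.74 ± 0.06 for Toll-7. With 3 libraries such likeness is a description and carries no test. trn, a leucine-rich repeat receptor that acts with teneurins at compartment boundaries of the embryo, stood at 69.8 ± 0.287 FPKM. The teneurin genes Ten-m and Ten-a stood at 30.9 ± 2.46 and 24.0 ± 2.75 FPKM. Src42A, a kinase gene, stood at 51.4 ± 1.07 FPKM, and Pi3K92E and Pi3K21B, subunit genes of PI3 kinase, at 28.9 ± 0.254 and 24.0 ± 1.86 FPKM.

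**Figure D5:**
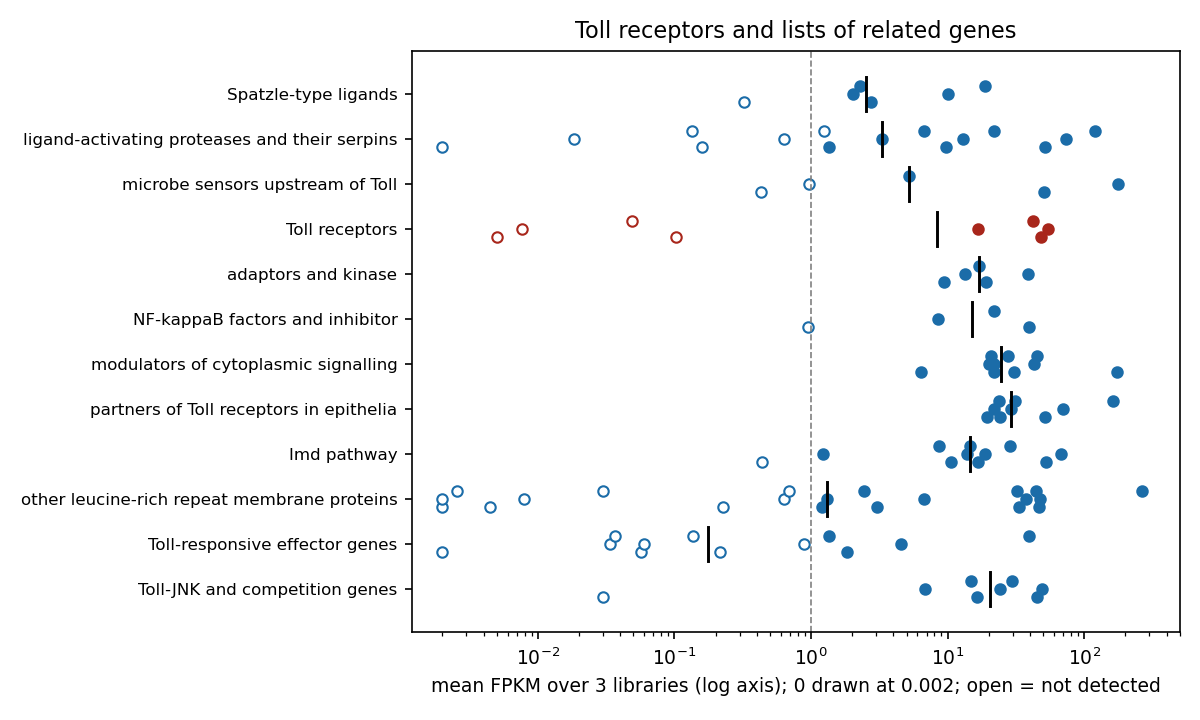
Mean FPKM over 3 libraries (log axis) of the genes of each list, with filled circles for genes at 1 FPKM or more in every library, open circles for the others, and a black line at the list's median; genes at 0 are drawn at 0.002. The 8 Toll receptors (red) fall into 4 filled and 4 open circles with a wide gap, whereas all adaptors, modulators and partners are filled.

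Among 21 other genes listed for secreted or membrane proteins with leucine-rich repeats, 12 were detected, or 57.1%. That is near the 51.9% of all protein-coding genes. The 21 include trk, which is not of this class and had 2 reads in all. The median of the list was 1.30 FPKM, below the 2.55 FPKM of all protein-coding genes. Gp150 stood at 264 ± 7.47 FPKM, sli, the Robo ligand, at 47.4 ± 2.62 FPKM, kek1, an inhibitor of the EGF receptor, at 46.3 ± 0.684 FPKM, Fili at 44.2 ± 1.04 FPKM and kek5 at 37.4 ± 1.86 FPKM. Among the detected genes with the largest spread, rk stood at 1.30 ± 0.224 FPKM, haf at 3.02 ± 0.219 FPKM and Lrt at 6.70 ± 0.407 FPKM. 18w, Toll-7 and Tollo lay within the range of these higher genes.

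Of 12 genes that respond to Toll signalling in immunity 4 were detected, with a median of 0.177 FPKM. cact, one of the 4, was high and steady, and the others, Drs, Def and nec, stood at a mean of 4.58 FPKM or less. Drs, the antifungal peptide drosomycin, stood at 3.40, 2.39 and 7.95 FPKM, on 35, 24 and 77 reads. Def stood at 2.16, 1.16 and 2.20 FPKM. Mtk had 0, 0 and 18 reads, which gave 2.69 FPKM in library 3. By FPKM all 11 effector genes with any read were highest in library 3, as were 35.1% of the 13909 genes above 0. Several rested on few reads in all: 1 each for BomS1 and IM14, 2 each for BomBc1 and IM4, 6 for BomS2 and 8 for BomS3. IM4 had 1, 0 and 1 reads and Def had 23, 12 and 22. cact had 3442, 3288 and 3363 reads. IM4, Def and cact were thus highest in library 3 only after the libraries were scaled. The summed fat body markers were also highest there, with 7 of 7 detected and 6 of 7 highest in that library, and their part in the effector levels was not tested. Of the 8 Toll receptors 2 were highest in library 3 by FPKM, Tl and Toll-4. Both were so only after scaling, with 2308, 2186 and 2208 reads for Tl and 1, 0 and 1 for Toll-4. The genes of the Imd pathway, the parallel immune pathway, were detected in 10 of 11 cases, with key at 67.9 ± 2.37 FPKM, Dredd at 52.7 ± 0.908 FPKM, Diap2 at 28.5 ± 1.19 FPKM, Tak1 at 18.7 ± 0.378 FPKM and IKKbeta at 16.8 ± 0.303 FPKM. PGRP-LE stood at 14.6 ± 0.85 FPKM, Fadd at 8.61 ± 0.606 FPKM and PGRP-LC at 1.22 ± 0.137 FPKM.

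Of 8 genes of JNK signalling and cell death, which Toll receptors can engage in cell competition, 7 were detected. bsk, the JNK gene, stood at 48.8 ± 1.72 FPKM, and hep, its activating kinase, at 16.4 ± 0.671 FPKM. The death genes hid and rpr stood at 45.1 ± 1.17 and 24.2 ± 2.52 FPKM, while grim had 4 reads in all. Of the grim exon length 44.1% is shared with an antisense gene and 31.8% with a noncoding gene on the same strand. Mmp1 and puc, targets of JNK, were at 29.7 ± 4.05 and 14.9 ± 1.71 FPKM, and egr, the TNF ligand, at 6.77 ± 0.597 FPKM.

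The genes nearest to each detected receptor over the 3 libraries were found by Euclidean distance of log2(FPKM + 0.1) among 7953 other genes whose mean reached 1 FPKM. They were CG10005, fz and U2af38 for 18w (distances 0.02, 0.03 and 0.04), CG11999, shams and Past1 for Toll-7 (0.01, 0.02 and 0.02), hdc, pyd and Nup153 for Tollo (0.01, 0.02 and 0.02), and GCS1, Dnz1 and CG31510 for Tl (0.02, 0.03 and 0.03). Within a distance of 0.1 there were 56, 87, 76 and 91 genes for 18w, Toll-7, Tollo and Tl, so the measure mainly finds genes of the same level.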

How the data were processed

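RNA of wing discs was measured in 3 libraries. The authors deposited FPKM values per gene, 1 column per library, and number alone linked columns to samples, since the prefix w118 is in no label. The submitters' processing notes name CASAVA 1.8, FastQC 0.11.8, STAR 2.7.6a, featureCounts 1.6.0, DESeq2 and dm6. For annotation, strand setting and multiply mapping reads, nothing is stated there. Names missing in 24 rows were looked up by identifier, and all 24 were found. Positions and lengths came from Ensembl release 115. FPKM times exon length gave whole multiples of 1 read for over 99.7% of genes above 0 (tolerance 0.01) and for all 8 members, with 25047774 to 26454948 reads per library. These reads served for depth, counting intervals (exact, 95%) and alternatives. limma 3.58.1 in R 4.3.3 tested mean log2(FPKM + 0.1) against 1 FPKM, one-sided, with Benjamini-Hochberg adjustment and a threshold of 0.05, and was checked on simulated data. The members and lists were chosen with earlier results of these data known, and the lists were written from general knowledge. Named were all members, all genes of lists of up to 8, and from longer lists the 5 highest and the 3 most variable of at least 1 FPKM. Also named were the 3 genes nearest to each detected member and the 2 highest of the tissue markers used. Genes beside members were named after their values were seen. The symbol Tollip was not matched.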

Additional observations from a re-analysis of the deposited data

How the results depend on the processing

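Both counts of Toll receptor genes were 4 under every alternative run: levels of 0.5 or 2 FPKM, 10 reads in each library, 1 FPKM in any library, libraries rescaled to the same total, and leaving out each library, and for limma also pseudocounts of 1 and 0.01, no filter, a mean of at least 0.1 FPKM and an intensity trend. No member lay between 0.151 and 16.2 FPKM in any library, so levels of 0.5, 1 and 2 FPKM had to give the same count. The same holds for 1 FPKM in any library and for detection with a library left out. Because of this gap the rescaling and the limma alternatives also had little room to change the count. At 2 FPKM the ligand list fell to 3 detected genes and the effector list to 2. The log2 ratio of 18w to Toll-7 reversed to -0.071 in undivided reads and -0.0089 per coding length, that of Toll-7 to Tollo to -0.091 per coding length, and that of Toll-4 to Toll-6 to -0.58 and -0.16, on 2 and 3 reads. By construction these follow from the length divided by. Pseudocounts of 1 and 0.01 gave 4.0 and 7.26 for Tl to Toll-9. Libraries could not be paired between conditions because they form 1 group, whereas ratios of genes were taken within each library. Depth limits the order of Toll-4 and Toll-6, and the place of Tehao between them and Toll-9 did not meet the criterion on the spread between libraries.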
